A study of Mus musculus with 18 samples.

Results

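The genes described here are the 6 nuclear receptors of the retinoic acid pathway (Rara, Rarb, Rarg, Rxra, Rxrb and Rxrg) and 3 genes that handle retinoids inside the cell (Aldh1a1, Dhrs3 and Crabp2). They were chosen by name, and each of the 9 matched 1 of the 44349 rows in the deposited expression table. RNA-seq was run on LT-HSC, the long-term stem cells at the top of the blood system, sorted from mouse bone marrow as Lin- Sca-1+ c-Kit+ CD34- Flk2- CD49b-low. The mice were wild type or lacked DERARE, the distal element through which retinoic acid acts on the Hoxb genes. Since DERARE is no gene, the table holds no row that shows its deletion.

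The 18 libraries form 6 groups of 3. KO Reserve are knockout cells with the reserve label, and WT Reserve are wild-type cells with that label. KO Wnt5a are knockout cells that the labels call a Wnt5a rescue of the knockout, and Wnt5a are cells whose genotype field reads only Wnt5a but whose column headers in the table give the wild type. KO Ctrl are knockout cells by their titles and headers, with a genotype field that reads "knockout wt control", and WT are wild-type cells. Wnt5a is a secreted ligand of noncanonical Wnt signalling, and how and for how long it was given is not stated in the sources used here, nor are the age and number of the mice. The genotype field of KO Reserve reads "wild type reserve ko", and the sample titles, which say KO, were followed. The headers of both reserve groups carry derarefl where the others carry derarewt or derareko, and what that says of their allele is not given in the sources used here. Whether the replicates are different animals is not labelled, and the p-values cover only the spread between libraries.

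Retinol taken up by a cell is oxidised to retinal and then, by retinaldehyde dehydrogenases, to retinoic acid, the ligand of the retinoic acid receptors (RAR). A RAR binds DNA as a pair with a retinoid X receptor (RXR) and moves its target genes between repression and activation as the ligand arrives. In blood stem cells retinoic acid signalling is known for favouring dormancy and self-renewal, with Rarg the RAR most often tied to that role.

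Values are FPKM, fragment counts scaled to the length of the transcript and the depth of the library, with n = 3 libraries in each group. The size of 1 fragment in low genes puts the libraries at 20400000 to 41200000 fragments, at which 3 fragments on a transcript of 1 kb are 0.0728 to 0.147 FPKM. Differences are log2 fold changes from limma on the log2(FPKM + 1) scale with SE and Benjamini-Hochberg adjusted p, and a gene is said to have risen or fallen where that p is below 0.05. The scale understates the change of low genes. Of the 9 genes, 6 had at least 1 FPKM in at least 3 libraries and were tested among 14285 genes. Rarb, Rxra and Crabp2 stayed below that filter, and Rxrg passed it only through WT Reserve and 1 KO Reserve library, so that it had to differ.

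The reserve libraries stood apart from the other 12. Transcripts of 9 LT-HSC markers were present in all groups, summing to 85.2 to 99.8 FPKM in KO Reserve, 187 to 230 in WT Reserve and 198 to 223 in the other groups. Cd34, whose protein the gate excludes, averaged 10.6 FPKM in KO Reserve and 67.7 in WT Reserve, but 307 to 402 in the other 4 groups, and Itga2, which encodes CD49b, averaged at most 0.31. Flt3, which encodes the likewise excluded Flk2, averaged 3.93 FPKM in KO Reserve, 15.5 in WT Reserve and at most 1.39 in the others. Ly6a, which encodes Sca-1, averaged 21.9 FPKM in KO Reserve, 152 in WT Reserve and 90.9 to 185 in the others, and Kit averaged 29.5, 28.8 and 15.7 to 29.4 in the same groups. Granule transcripts of neutrophils (6 genes) summed to 2250 to 3330 FPKM in KO Reserve, 4120 to 10300 in WT Reserve and at most 10.5 in the 12 other libraries. Transcripts of 5 megakaryocyte genes summed to 77.1 to 132 in KO Reserve, 168 to 178 in WT Reserve and 7240 to 29500 elsewhere. In bulk libraries fewer cells of a type and less RNA per cell cannot be told apart, and the reserve label cannot be told apart from any batch in which those 6 libraries were made.

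Aldh1a1, the retinaldehyde dehydrogenase that makes retinoic acid and that also serves as a stem cell marker, was above 23 FPKM in every library, and the knockout differed from wild type in opposite directions inside and outside the reserve set. The gene lies on chromosome 19 (ENSMUSG00000053279, 20492715 to 20643465, plus strand, GRCm38). It had 35.7, 34.8 and 35.3 FPKM in KO Reserve, against 23.3, 26.9 and 25.0 FPKM in WT Reserve. Outside the reserve set it had 31.8, 37.3 and 41.8 FPKM in KO Ctrl, against 53.6, 52.7 and 48.7 FPKM in WT. All 3 KO Reserve libraries were thus above all 3 WT Reserve libraries, and all 3 KO Ctrl libraries were below all 3 WT libraries. Aldh1a1 rose in KO Reserve against WT Reserve (a log2 fold change of 0.48, SE 0.13, adjusted p = 0.00761). For KO Ctrl against WT the difference was -0.48 (SE 0.13), with adjusted p = 0.0597, and it passed with median-ratio scaling (adjusted p = 0.0298), library weights (adjusted p = 0.0195) or a mean of at least 5 FPKM (adjusted p = 0.0487). Library weights, whose estimation did not fully converge, called 1480 of all genes in KO Ctrl against WT, against 378 in the reported fit. The difference between these knockout effects passed the test (0.96, SE 0.19, 95% confidence interval 0.57 to 1.35, adjusted p = 0.00101), and stayed between 0.86 and 1.29 under every alternative run and without any 1 library. Transcripts of 10 erythroid genes were higher in KO Reserve too, summing to 7700 to 9220 FPKM in KO Reserve, 5180 to 7380 in WT Reserve and 382 to 619 in the 12 other libraries, with 5 of the 10 called higher and none lower in KO Reserve against WT Reserve. In KO Ctrl against WT none of these 10 was called. Outside the reserve set Aldh1a1 went with the sum of 5 megakaryocyte genes (Pearson r = 0.61 of log2 values, 12 libraries). In 0 of the 4 groups there did the libraries have the same order by both. That sum was 11100 to 18400 FPKM in KO Ctrl, against 20100 to 29500 in WT. The part of erythroid or megakaryocyte RNA in the Aldh1a1 values was not tested.

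With Wnt5a, Aldh1a1 had 25.3, 31.0 and 38.4 FPKM in KO Wnt5a, against 37.1, 38.3 and 43.0 FPKM in Wnt5a, and these groups overlapped. All 3 Wnt5a libraries were below the 3 WT libraries, but no Wnt5a comparison of this gene passed in the reported fit (adjusted p = 0.499 in Wnt5a against WT, 0.564 in KO Wnt5a against KO Ctrl and 0.199 in KO Wnt5a against Wnt5a). With library weights Wnt5a against WT passed (-0.42, adjusted p = 0.00983), but that setting called 1541 of all genes there, against 7 in the reported fit. WT Reserve was lower than WT by 1.02 on the log2 scale (log2 fold change -1.02, SE 0.13, adjusted p = 4.58e-06). KO Reserve and KO Ctrl differed by -0.06 (95% confidence interval -0.33 to 0.22, adjusted p = 0.717). In the order of group means WT came first at 51.7 ± 2.63 FPKM (SD, n = 3), above every library of the other groups. Wnt5a, KO Ctrl, KO Reserve, KO Wnt5a and WT Reserve, last at 25.1 ± 1.83, followed, and each of these overlapped with its neighbour.

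Aldh1a7, a close paralogue of Aldh1a1 with which fragments may be shared, followed another course. It was nearly absent outside the reserve set, at no more than 0.847 FPKM in any of the 12 libraries. In the reserve set it had 19.8, 16.9 and 18.3 FPKM in KO Reserve, against 11.2, 9.71 and 10.3 FPKM in WT Reserve (a log2 difference of 0.76, SE 0.17, adjusted p = 0.00237). Both paralogues were therefore higher in KO Reserve than in WT Reserve, while only Aldh1a1 was found at more than 1 FPKM in KO Ctrl and WT. How the authors' counting divided fragments between the pair is not given in the sources used here.

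**Figure D1:**
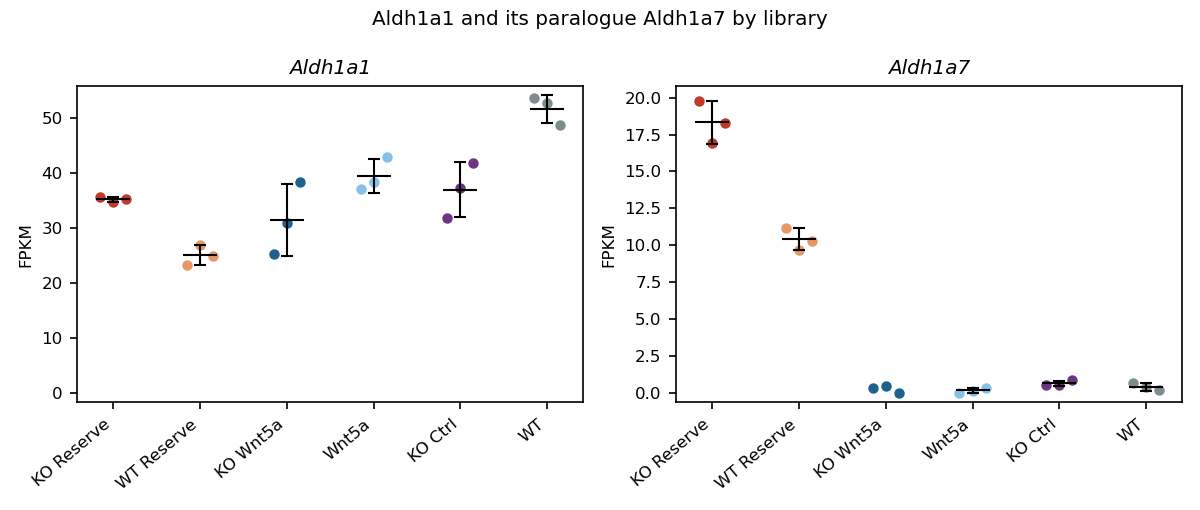
Aldh1a1 (left) and its paralogue Aldh1a7 (right) in FPKM on linear axes, 1 point per library, with the mean and SD of 3 libraries as lines where none is listed at 0. Aldh1a1 sits between 34.8 and 35.7 in KO Reserve, above the 23.3 to 26.9 of WT Reserve, while KO Ctrl lies below WT; Aldh1a7 is high only in the 6 reserve libraries.

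Dhrs3, a short-chain reductase that returns retinal to retinol and that retinoic acid itself induces, ranged between 6.77 and 74.4 FPKM, and fell in knockout cells with Wnt5a. The gene lies on chromosome 4 (ENSMUSG00000066026, 144892827 to 144928209, plus strand, GRCm38). It had 15, 12.5 and 12.1 FPKM in KO Wnt5a, against 34.6, 28.2 and 74.4 FPKM in Wnt5a, with no overlap. KO Ctrl had 53.0, 22.5 and 31.1 FPKM, against 55.9, 52.2 and 67.8 FPKM in WT, which overlap through 1 KO Ctrl library. KO Reserve had 7.51, 9.56 and 6.77 FPKM, against 18.4, 10.9 and 16.4 FPKM in WT Reserve, again with no overlap. The knockout group thus had the lower mean in each of the 3 pairs.

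Of these, KO Wnt5a against Wnt5a passed the test (log2 fold change -1.60, SE 0.33, adjusted p = 0.0149). That call rested on single libraries: it ended without Wnt5a replicate 3 (-1.19, adjusted p = 0.0543), KO Wnt5a replicate 2 (adjusted p = 0.0601) or KO Wnt5a replicate 3 (adjusted p = 0.0685), and when only those 6 libraries were fitted (adjusted p = 0.0929). KO Reserve against WT Reserve gave -0.84 (SE 0.33, adjusted p = 0.0517), and passed without WT Reserve replicate 2 (-1.05, adjusted p = 0.0326) and in a fit of those 6 libraries (adjusted p = 0.0306). It shrank to -0.59 with quantile normalization, and its adjusted p reached 0.181 over the alternatives. KO Ctrl against WT gave -0.78 (SE 0.33, adjusted p = 0.225). KO Wnt5a was below KO Ctrl in every library (-1.28, SE 0.33, adjusted p = 0.0887), which passed without KO Ctrl replicate 2 (-1.56, adjusted p = 0.0408), and Wnt5a against WT gave -0.47 (SE 0.33, adjusted p = 0.777). The Wnt5a effect in knockout minus that in wild type was -0.81 (SE 0.46, adjusted p = 0.885).

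Megakaryocyte transcripts moved with Dhrs3. The 5 marker genes were Pf4, Itga2b, Gp1bb, Gp9 and Vwf, all present in every group. They summed to 7240 to 10400 FPKM in KO Wnt5a, against 12300 to 27400 in Wnt5a, with 2 of 5 called lower. In KO Ctrl they summed to 11100 to 18400 FPKM, against 20100 to 29500 in WT, with 1 of 5 called lower. Within each of the 4 groups outside the reserve set, the 3 libraries had the same order by Dhrs3 as by this sum, and Wnt5a replicate 3 was highest in its group by both. In the reserve set KO Reserve had the lower sums as well, but there the 3 KO Reserve libraries ran in the opposite order. Other lists were lower in KO Wnt5a than in Wnt5a as well. The 5 mast cell and basophil genes summed to 10.1 to 10.9 FPKM in KO Wnt5a, against 79.6 to 165 in Wnt5a, with 4 of 5 called lower. The 4 primary granule genes of myeloid cells summed to 22.1 to 25.3 FPKM in KO Wnt5a, against 124 to 177 in Wnt5a, with 3 of 4 called lower. The part of these cells' RNA in the Dhrs3 values was not tested.

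**Figure D2:**
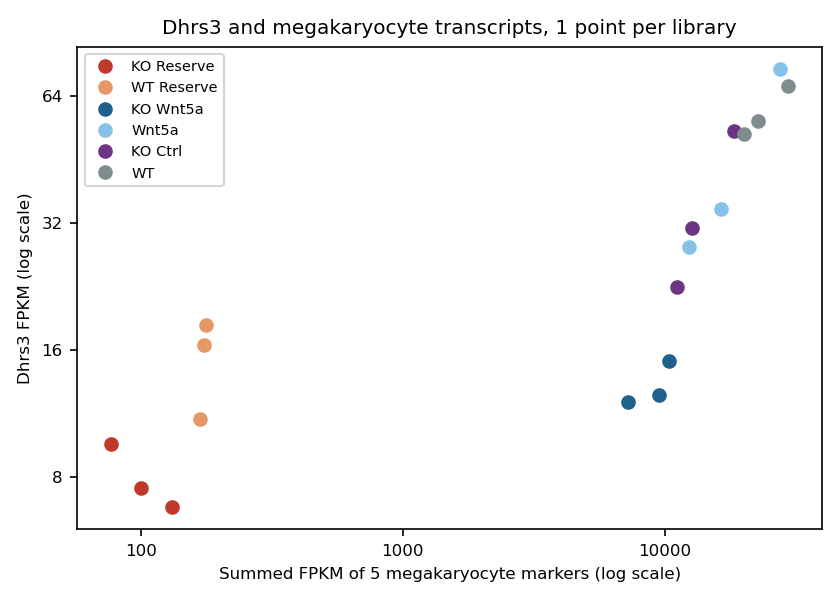
Dhrs3 in FPKM against the summed FPKM of 5 megakaryocyte genes, both on log scales, 1 point per library coloured by group. Outside the reserve set the points lie along 1 rising band, from the KO Wnt5a libraries at 12.1 to 15 FPKM to the WT libraries at 52.2 to 67.8 and Wnt5a replicate 3 at 74.4; the reserve libraries lie far to the left, at sums of 77.1 to 178.

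Crabp2, the carrier that hands retinoic acid to RAR (ENSMUSG00000004885, chromosome 3, 87948666 to 87953376, plus strand, GRCm38), was close to absent. It was listed at 0 in 13 of the 18 libraries and did not exceed 0.107 FPKM, and 17 of the 18 libraries were at or below the 0.0782 to 0.158 FPKM that 3 fragments make on its longest transcript. No difference in Crabp2 was detectable at this depth. Fabp5, a fatty acid-binding protein that can also carry retinoic acid to other receptors, was at 39.5 ± 0.878 FPKM in KO Reserve, 53.1 ± 9.05 in WT Reserve and 78.4 to 88.9 on average in the other groups. Fabp5 fell in KO Reserve against WT Reserve (a log2 fold change of -0.40, SE 0.12, adjusted p = 0.0112) and in WT Reserve against WT (-0.75, SE 0.12, adjusted p = 3.87e-05). The retinoic acid hydroxylases Cyp26a1, Cyp26b1 and Cyp26c1 averaged at most 0.207 FPKM in any group.

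Rarg, the RAR of highest level in WT, had its highest group mean there and its lowest in KO Reserve, and fell in the knockout within the reserve set. The gene lies on chromosome 15 (ENSMUSG00000001288, 102234938 to 102257517, minus strand, GRCm38). Its values were 0.262, 0.745 and 0.206 FPKM in KO Reserve, against 0.895, 1.56 and 1.03 FPKM in WT Reserve. KO Wnt5a had 1.60, 1.42 and 2.09 FPKM, against 2.47, 2.55 and 3.61 FPKM in Wnt5a. KO Ctrl had 3.90, 2.95 and 3.34 FPKM, against 4.47, 3.77 and 4.53 FPKM in WT. The first 2 pairs did not overlap and the third did, by 1 KO Ctrl library.

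Rarg fell in KO Reserve against WT Reserve (a log2 fold change of -0.63, SE 0.18, adjusted p = 0.0101). The call ended with quantile normalization (-0.42, adjusted p = 0.107), library weights (-0.42, adjusted p = 0.111), a fit of those 6 libraries alone (adjusted p = 0.0642), and without KO Reserve replicate 3 (-0.53, adjusted p = 0.0532). KO Wnt5a against Wnt5a gave -0.51 (SE 0.18, adjusted p = 0.142) and KO Ctrl against WT -0.26 (SE 0.18, adjusted p = 0.497). With Wnt5a, the values were -0.70 (SE 0.18, adjusted p = 0.0806) for KO Wnt5a against KO Ctrl and -0.45 (SE 0.18, adjusted p = 0.556) for Wnt5a against WT, each without overlap of libraries. Both reserve groups were lower than their counterparts, at -1.66 (SE 0.18, adjusted p = 4.38e-07) for KO Reserve against KO Ctrl and -1.29 (SE 0.18, adjusted p = 1.07e-05) for WT Reserve against WT. The megakaryocyte sums were likewise lower in KO Reserve, KO Wnt5a and KO Ctrl than in the matching groups. Outside the reserve set Rarg went with that sum (Pearson r = 0.82 of log2 values, 12 libraries). Within the 4 groups there, the libraries had the same order by Rarg as by that sum in 2 groups. The part of megakaryocyte RNA in the Rarg values was not tested.

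Rara, the most widely expressed RAR and the one joined to PML in promyelocytic leukaemia, fell in KO Reserve. The gene lies on chromosome 11 (ENSMUSG00000037992, 98927818 to 98974942, plus strand, GRCm38). Its values were 0.767, 0.704 and 0.277 FPKM in KO Reserve, against 2.42, 1.23 and 2.15 FPKM in WT Reserve. KO Ctrl had 1.08, 2.38 and 1.02 FPKM, against 0.861, 0.886 and 0.787 FPKM in WT. The groups did not overlap in either pair, with the knockout lower in the reserve set and higher outside it. The log2 fold change was -0.88 (SE 0.23, adjusted p = 0.00555) for KO Reserve against WT Reserve and 0.39 (SE 0.23, adjusted p = 0.402) for KO Ctrl against WT. Without KO Ctrl replicate 2, at 2.38 FPKM, the value for KO Ctrl against WT was 0.15. The difference between the 2 knockout effects was -1.27 (SE 0.32, 95% confidence interval -1.96 to -0.59, adjusted p = 0.00683). Several marker lists were also lower in KO Reserve than in WT Reserve, among them those of neutrophils, of T and NK cells and of LT-HSC (8 of 9 called lower). Monocyte and macrophage genes summed to 101 to 146 FPKM in KO Reserve, against 433 to 663 in WT Reserve, with 4 of 4 tested called lower. Genes of dendritic cells and MHC class II summed to 83 to 120 FPKM in KO Reserve, against 383 to 524 in WT Reserve, with 5 of 5 tested called lower. Outside the reserve set Rara ran opposite to the megakaryocyte sum (Pearson r = -0.82 of log2 values, 12 libraries). That sum was 11100 to 18400 FPKM in KO Ctrl, against 20100 to 29500 in WT. The part of all these cells' RNA in the Rara values was not tested.

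KO Wnt5a had 1.85, 1.59 and 2.78 FPKM of Rara, against 0.903, 1.69 and 1.19 FPKM in Wnt5a, which overlap (log2 fold change 0.44, SE 0.23, adjusted p = 0.352). Rara rose in WT Reserve against WT (0.64, SE 0.23, adjusted p = 0.0232) and fell in KO Reserve against KO Ctrl (-0.63, SE 0.23, adjusted p = 0.0234). The first call ended with quantile normalization (0.40, adjusted p = 0.102) and without WT replicate 1, WT replicate 3, WT Reserve replicate 1 or WT Reserve replicate 3 (0.52 to 0.58 without either of the reserve libraries). The second ended with median-ratio scaling (-0.49, adjusted p = 0.0599) and without KO Ctrl replicate 2 (-0.39, adjusted p = 0.149) or KO Reserve replicate 3 (-0.48, adjusted p = 0.108). It also ended with no filter on low values (adjusted p = 0.05) and in a fit of only the KO Reserve and KO Ctrl libraries (adjusted p = 0.0627).

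Rarb is the RAR gene that retinoic acid induces through an element in its own promoter, and its promoter is shown because that element is the textbook RAR-RXR binding site. The gene (ENSMUSG00000017491, chromosome 14, 16430839 to 16819156, minus strand, GRCm38) has an internal start whose 250 upstream bases, chr14:16575477-16575726 on the minus strand of GRCm38.p6, read in RefSeq as follows, with the repeat in capitals.
Rarb: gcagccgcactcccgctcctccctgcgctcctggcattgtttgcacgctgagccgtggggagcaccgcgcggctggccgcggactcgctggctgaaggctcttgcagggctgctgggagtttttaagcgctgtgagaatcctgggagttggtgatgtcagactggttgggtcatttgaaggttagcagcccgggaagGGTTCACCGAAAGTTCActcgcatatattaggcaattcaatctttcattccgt
The capitals are 2 half-sites of 6 bases with 5 bases between them, 53 to 37 bases upstream of the start. The search took as a half-site AGGTCA or one of its variants, which were AGTTCA as well as GGGTCA and also GGTTCA. It asked for a pair in the same direction on either strand, with 1, 2 or 5 bases between. Of the 9 genes 8 have windows in the RefSeq table, 18 in all, and Rarb alone held such a repeat in those letters. Repeats with 5 bases between occur in 0.0883% of 32851 windows, those with 2 in 0.174% and those with 1 in 0.164%. A match of letters says nothing of binding in these cells.

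Rarb itself was low. It had 0.761, 0.631 and 0.469 FPKM in KO Reserve, against 1.37, 1.15 and 0.660 FPKM in WT Reserve, groups that overlap through 1 library of each. Outside the reserve set it did not exceed 0.510 FPKM in any of 12 libraries, which was KO Ctrl replicate 1, and KO Ctrl replicate 3 was listed at 0. All 6 reserve libraries but 1 were above all 12 others, and that 1, KO Reserve replicate 3 at 0.469, lay between KO Ctrl replicate 1 and the rest. Fitted with no filter over 30242 genes, Rarb rose in WT Reserve against WT (log2 fold change 0.91, SE 0.15, adjusted p = 0.000361), with -0.33 (SE 0.15, adjusted p = 0.165) for KO Reserve against WT Reserve. The libraries keep no strand, and Rarb shares 1793 exonic bases with Top2b on the opposite strand, from which its fragments cannot be told. Top2b averaged 39.7 ± 8.91 FPKM in KO Reserve and 49.5 ± 2.05 in WT Reserve, and rose by 0.46 (SE 0.14, adjusted p = 0.0107) in WT Reserve against WT.

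Rxrb was the RXR of highest group mean in all 6 groups, and lower in both reserve groups than in the other 4. The gene lies on chromosome 17 (ENSMUSG00000039656, 34031812 to 34038399, plus strand, GRCm38). Its values were 26.5, 25.2 and 30.7 FPKM in KO Wnt5a, against 17.3, 17.1 and 18 FPKM in Wnt5a. KO Ctrl had 18.1, 23.3 and 27.0 FPKM, against 19.3, 25.1 and 20.3 FPKM in WT. KO Reserve had 9.76, 11.5 and 11.1 FPKM, against 13.4, 5.79 and 14.1 FPKM in WT Reserve. The first pair did not overlap and the other 2 did.

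Rxrb gave 0.62 (SE 0.23, 95% confidence interval 0.13 to 1.10, adjusted p = 0.167) for KO Wnt5a against Wnt5a, and that value passed with library weights (0.60, adjusted p = 0.0123), in those 6 libraries alone (adjusted p = 0.034), and in a fit of the 12 libraries outside the reserve set (adjusted p = 0.0329), an alternative chosen after the data were seen. Library weights called 1548 of all genes in KO Wnt5a against Wnt5a, against 461 in the reported fit. No difference passed for KO Reserve against WT Reserve (0.04, 95% confidence interval -0.44 to 0.53, adjusted p = 0.903, with -0.33 to 0.34 over the alternatives) or KO Ctrl against WT (0.07, 95% confidence interval -0.42 to 0.55, adjusted p = 0.933). Rxrb fell in KO Reserve against KO Ctrl (-1.0, SE 0.23, adjusted p = 0.00103) and in WT Reserve against WT (-0.98, SE 0.23, adjusted p = 0.00151). Outside the reserve set Rxrb ran opposite to the megakaryocyte sum (Pearson r = -0.64 of log2 values, 12 libraries). The part of megakaryocyte RNA in the Rxrb values was not tested.

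Rxrg, an RXR known mainly from muscle and brain, was near 0 outside the reserve set. The gene lies on chromosome 1 (ENSMUSG00000015843, 167598384 to 167639623, plus strand, GRCm38). It had 0.995, 2.60 and 0.660 FPKM in KO Reserve, against 11.8, 6.44 and 8.03 FPKM in WT Reserve, with no overlap. In the 12 other libraries it was listed at 0 in 6 and did not exceed 0.465 FPKM, against the 0.0345 to 0.0696 FPKM that 3 fragments make. Since Rxrg entered the fit through the libraries in which it is high, its fitted differences are given as a description, with no p. They were -2.06 (SE 0.26) for KO Reserve against WT Reserve, 3.21 (SE 0.26) for WT Reserve against WT and 1.04 (SE 0.26) for KO Reserve against KO Ctrl. The last 2 depend on the pseudocount, since WT and KO Ctrl were listed at or near 0.

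Transcripts of several other blood cells moved with Rxrg. Genes of dendritic cells and MHC class II summed to 83 to 120 FPKM in KO Reserve, against 383 to 524 in WT Reserve, and to 16.2 to 35.6 FPKM in the 12 other libraries. Monocyte and macrophage genes were lower in KO Reserve than in WT Reserve as well, as given beside Rara. For T and NK cells, the 7 genes listed summed to 146 to 163 FPKM in KO Reserve, against 282 to 363 FPKM in WT Reserve, and to 23.3 to 73.3 FPKM in the 12 other libraries. Most of that sum was Nkg7, an NK cell granule gene that other blood cells also express, at 130.0 ± 13.8 FPKM in KO Reserve and 297 ± 40.7 in WT Reserve. The defining T cell gene Cd3e was listed at 0 in all 12 libraries outside the reserve set and reached 0.105 FPKM in KO Reserve and 0.373 in WT Reserve. The gene whose pattern over the 18 libraries was most like that of Rxrg was Themis, which acts in T cell selection (Pearson r = 0.981 of log2 values, 18 libraries), at 1.29 ± 0.723 FPKM in KO Reserve and 4.57 ± 1.31 in WT Reserve. The part of such cells in the Rxrg values was not tested.

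Rxra, the main RXR of liver and of many myeloid cells (ENSMUSG00000015846, chromosome 2, 27676440 to 27762957, plus strand, GRCm38), was low throughout, with a median of 0.508 FPKM over the 18 libraries and a highest value of 1.14. It had 0.870, 0.588 and 0.851 FPKM in KO Wnt5a, against 0.294, 0.473 and 0.249 FPKM in Wnt5a. KO Ctrl had 0.478, 0.633 and 0.758 FPKM, against 0.423, 0.432 and 0.210 FPKM in WT. In both pairs every knockout library was above every library of the other group, whereas the reserve groups overlapped. With no filter, none of these differences passed (0.40, SE 0.17, adjusted p = 0.432 for KO Wnt5a against Wnt5a, and 0.26, SE 0.17, adjusted p = 0.598 for KO Ctrl against WT).

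**Figure D3:**
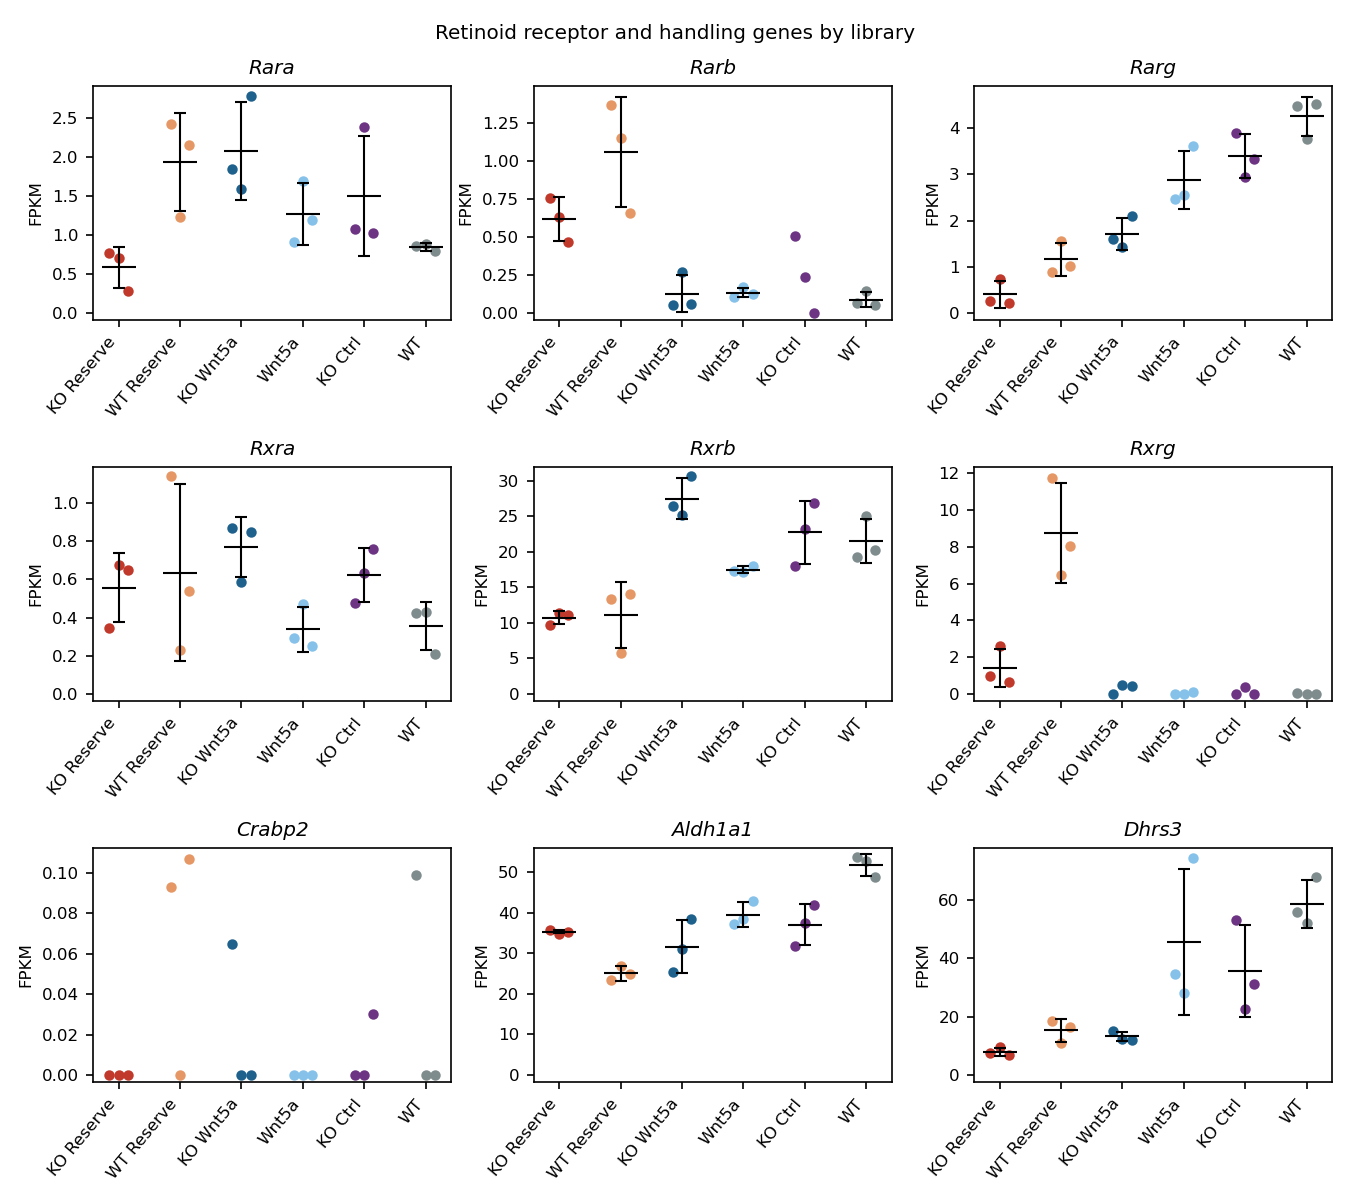
FPKM of the 9 genes on linear axes, 1 point per library in 6 groups, with lines for the mean and SD of 3 libraries in groups with no library at 0. Rarg has its lowest mean, 0.404, in KO Reserve and its highest, 4.26, in WT; Rxrg is above 0.465 only in the reserve set; Crabp2 is at or near 0 throughout.

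**Figure D4:**
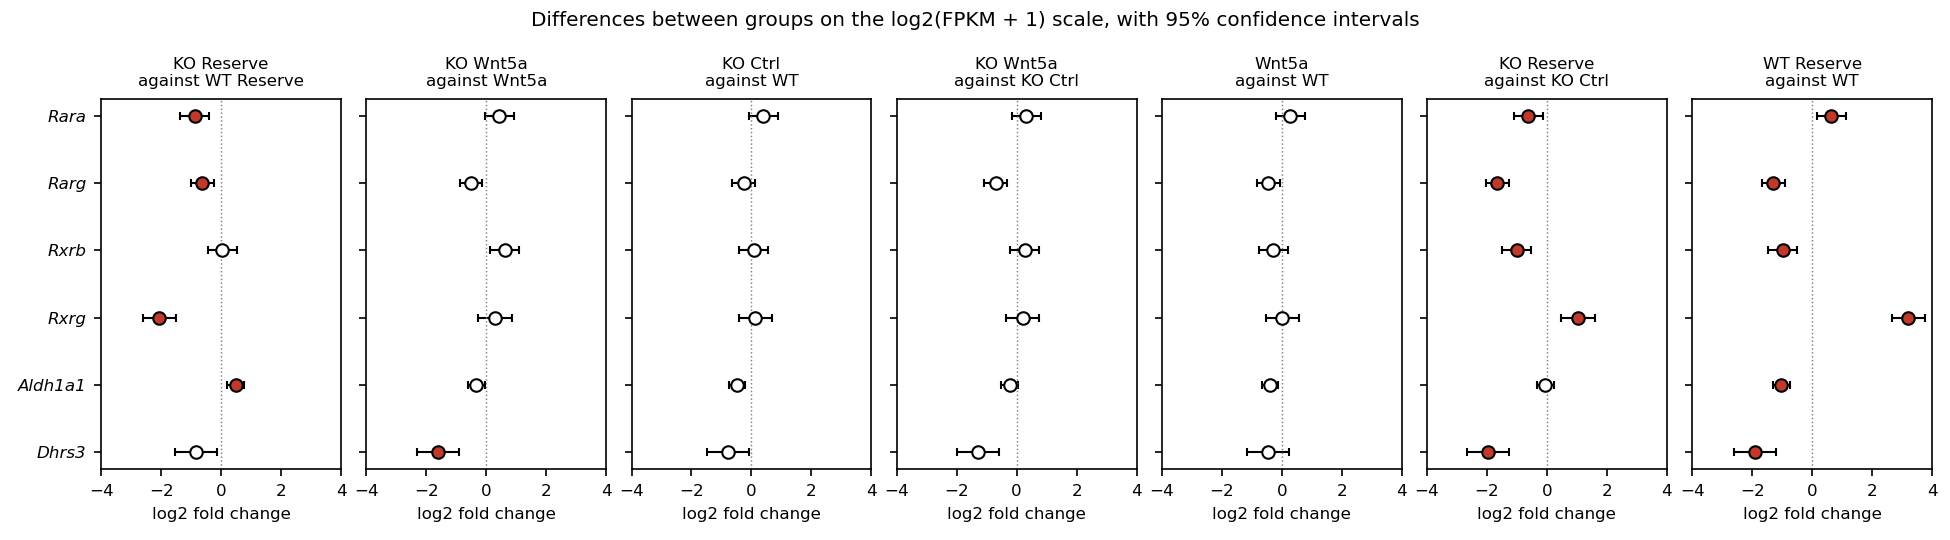
Log2 fold changes of the 6 tested genes in 7 comparisons on the log2(FPKM + 1) scale, with 95% confidence intervals; filled points have a limma adjusted p below 0.05, and those of Rxrg are a description only. Filled points stand mostly in the 3 comparisons that hold reserve libraries, with Dhrs3 the only one elsewhere, at -1.60 in KO Wnt5a against Wnt5a.

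The makeup of each receptor family can be read as each gene's share of the summed FPKM of its family. Rarg made up 24.0% ± 10.8 of RAR transcripts in KO Reserve and 28.5% ± 10.4 in WT Reserve. The share was 43.8% ± 1.76 in KO Wnt5a and 67.3% ± 8.33 in Wnt5a, and it was 66.9% ± 12.4 in KO Ctrl and 81.9% ± 3.05 in WT (SD, n = 3 each). The KO Wnt5a libraries, at 42.4% to 45.8%, lay below the Wnt5a libraries, at 57.8% to 73.2%, and Rara held 52.5% ± 3.90 and 29.5% ± 7.75 in these groups. The summed level of the 3 RAR genes differed less, at 3.90 ± 0.896 FPKM in KO Wnt5a and 4.27 ± 0.735 in Wnt5a, but was 1.61 ± 0.586 in KO Reserve and 4.15 ± 0.465 in WT Reserve. Rarb held 40.7% ± 9.63 in KO Reserve and 25.3% ± 6.99 in WT Reserve, but 1.76% to 4.53% on average in the other groups. Some of its fragments may be those of Top2b, with which it shares exonic bases, and the Rarg and Rara shares in the reserve set carry that limit.

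Among the RXR genes Rxrb held 96.3% to 98.3% on average in the 4 groups outside the reserve set. It held 85% ± 6.31 in KO Reserve and 53.2% ± 8.15 in WT Reserve, where Rxrg held 10.6% ± 6.30 and 44.0% ± 8.18. The RXR sum was 12.7 ± 1.82 FPKM in KO Reserve and 20.5 ± 7.16 in WT Reserve. The shares were not tested, since a share falls when another member of its family rises.

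**Figure D5:**
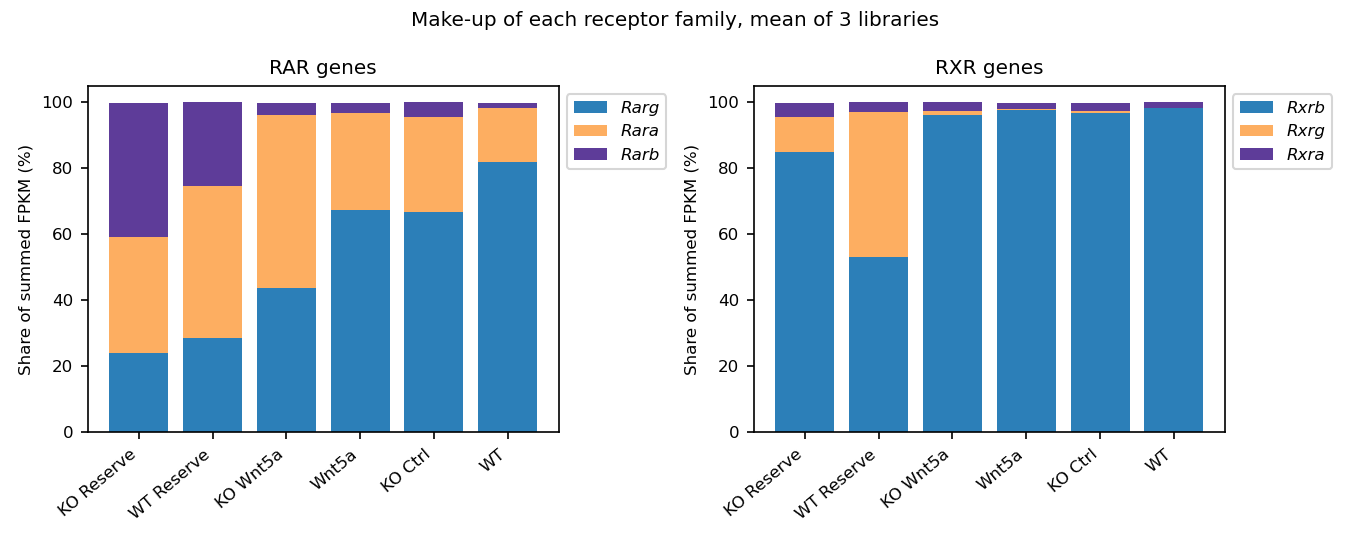
Mean share of each gene, in percent, in the summed FPKM of the 3 RAR genes (left) and the 3 RXR genes (right) for 6 groups of 3 libraries; bars start at 0 and stack to the family total. Rarg is 24.0% of RAR transcripts in KO Reserve and 81.9% in WT, and Rxrg is 44.0% of RXR transcripts in WT Reserve. Rarb, 40.7% of RAR transcripts in KO Reserve, may hold fragments of Top2b.

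Counted by comparison, KO Reserve against WT Reserve had, of the 5 tested genes other than Rxrg, 1 higher (Aldh1a1) and 2 lower (Rara and Rarg), where 41.3% of all genes tested were called, 12% higher and 29.3% lower. Against that background 3 of 5 is no result about these genes. The median log2 fold change of all genes was -0.17 here, 0.03 with quantile normalization and 0.02 with median-ratio scaling. Of 5 tested genes of retinoid uptake and storage, 1 fell and none rose (median -0.20). It was Scarb1, a scavenger receptor that takes up carotenoids (-0.63, SE 0.19, adjusted p = 0.0132). Of 13 tested enzymes of retinol and retinal oxidation and reduction, 6 fell and 3 rose (median -0.43). Dhrs7, a short-chain reductase, fell by 1.53 and the aldose reductase Akr1b3 by 0.75, while the retinaldehyde dehydrogenase Aldh1a3 had 4.82 ± 0.911 FPKM in KO Reserve and 2.15 ± 0.432 in WT Reserve (a difference of 0.88, SE 0.19, adjusted p = 0.00164).

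In the same comparison 6 of 11 tested retinoic acid target genes fell and none rose (median -0.59). Meis1, a homeobox partner of Hox proteins that is also an LT-HSC marker, had 13.5 ± 2.43 FPKM in KO Reserve and 53.4 ± 2.90 in WT Reserve (a difference of -1.92 on the log2 scale, SE 0.11, adjusted p = 5.09e-09). Cd38, an ectoenzyme that retinoic acid induces in myeloid cells, had 1.14 ± 0.459 FPKM in KO Reserve and 4.48 ± 0.816 in WT Reserve (-1.37, SE 0.26, adjusted p = 0.000534). Of 19 tested receptor coregulators, 3 fell and 1 rose (median -0.06). Gps2, a subunit of a corepressor complex of nuclear receptors, had 61.6 ± 7.42 FPKM in KO Reserve and 147 ± 11.4 in WT Reserve (-1.24, SE 0.11), the coactivator Ncoa3 fell by 1.13, and the coactivator Ncoa6 rose (0.83, SE 0.14). Of 8 tested partners of RXR, 3 fell (median -0.31), among them Nr4a1 (-1.30, SE 0.18) and the liver X receptor Nr1h2 (-0.97, SE 0.29). Nr1h2 had 25.2, 23.8 and 13.1 FPKM in KO Reserve, against 58.1, 21.4 and 51.5 FPKM in WT Reserve, which overlap through WT Reserve replicate 2. Meis1 and Ncoa3 share exonic bases with genes on the other strand, from which their fragments cannot be told. LT-HSC markers were lower in KO Reserve in this comparison, as given above, and their part in these lists was not tested.

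KO Ctrl against WT had none of the 6 genes called by limma, with 2 at an unadjusted p below 0.05 (Aldh1a1 and Dhrs3), where 2.65% of all genes were called, 1.53% higher and 1.12% lower. Of the pathway lists Gps2 alone was called, with 54.8 ± 5.76 FPKM in KO Ctrl and 27.0 ± 2.50 in WT (a difference of 0.99 on the log2 scale, SE 0.11, adjusted p = 0.00013). Gps2 was thus higher in KO Ctrl and lower in KO Reserve than in the matching wild type, and the difference between these effects passed the test (-2.23, SE 0.16, adjusted p = 2.71e-07). The 2 knockout comparisons share no library.

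KO Wnt5a against Wnt5a had 1 of the 6 genes lower (Dhrs3), where 3.23% of all genes were called, 1.41% higher and 1.82% lower. Of the pathway lists 4 genes rose: Gps2 (57.0 ± 2.58 FPKM in KO Wnt5a, 33.2 ± 2.98 in Wnt5a, log2 fold change 0.76, SE 0.11, adjusted p = 0.00121), the retinal reductase Rdh12 (0.65, SE 0.17), the vitamin D receptor Vdr (0.87, SE 0.20) and transglutaminase Tgm2, a classical retinoic acid target (8.26 ± 0.985 FPKM in KO Wnt5a, 3.89 ± 0.147 in Wnt5a, log2 fold change 0.92, SE 0.16, adjusted p = 0.00399). Tgm2 shares exonic bases with genes on the other strand. The median over the 11 tested target genes was 0.14, beside 0.05 for all genes.

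Wnt5a against WT and KO Wnt5a against KO Ctrl had none of the 6 genes called by limma, with 2 at an unadjusted p below 0.05 in each, where 0.049% (0.042% higher, 0.007% lower) and 1.02% (0.315% higher, 0.707% lower) of all genes were called. No gene of the pathway lists was called in either comparison. The interaction of Wnt5a with genotype called none of the 6, with none at an unadjusted p below 0.05, where 0.07% of all genes were called, 0.021% higher and 0.049% lower.

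Between the reserve set and the rest, most of the genes tested were called. WT Reserve against WT had, of the 5 genes other than Rxrg, 1 higher (Rara) and 4 lower (Rarg, Rxrb, Aldh1a1 and Dhrs3), where 58.7% of all genes were called, 30.8% higher and 27.9% lower. KO Reserve against KO Ctrl had 4 of the 5 lower (Rara, Rarg, Rxrb and Dhrs3) and none higher, where 65.3% were called, 24.8% higher and 40.4% lower. Dhrs3 gave -1.90 (SE 0.33, adjusted p = 0.000151) in the first and -1.96 (SE 0.33, adjusted p = 8.96e-05) in the second. Among the pathway genes, Scarb1 had 18.5 ± 2.73 FPKM in KO Reserve and 144 ± 25.9 in KO Ctrl, and 29.4 ± 6.08 in WT Reserve and 227 ± 34.2 in WT. The nuclear receptor Pparg fell by 2.70 in WT Reserve against WT and by a log2 fold change of -2.22 in KO Reserve against KO Ctrl, and the targets Rai14 (-2.12, SE 0.15) and Meis1 (-0.86, SE 0.11) fell in WT Reserve against WT. The gut-homing genes Itgb7 (2.03, SE 0.32) and Ccr9 (1.57, SE 0.32), which retinoic acid induces in lymphocytes, rose in WT Reserve against WT, where the transcripts of T, NK and B cells were higher too and their part was not tested.

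The knockout effect in the reserve set minus that outside it passed for 2 of the 5 genes other than Rxrg, higher for Aldh1a1 and lower for Rara, where 30.9% of all genes passed, 8.03% higher and 22.9% lower. For Rarg it was -0.37 (SE 0.25, adjusted p = 0.293), for Rxrb -0.02 (95% confidence interval -0.71 to 0.66, adjusted p = 0.971) and for Dhrs3 -0.06 (95% confidence interval -1.05 to 0.93, adjusted p = 0.943). Of the 11 target genes 5 passed, each of them lower (median -0.62, beside -0.22 for all genes), led by Meis1 (-1.82, SE 0.15) and Ccr9 (-2.45, SE 0.45). Rai14 and Ccr9 also share exonic bases with genes on the other strand.

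The genes whose log2 values followed each receptor or enzyme most closely over the 18 libraries are given as a description. Differences between the 6 groups, and between reserve and other libraries, enter these correlations, and their share was not measured. Rarg was followed most closely by Myl12a (Pearson r = 0.970), Mindy1 (0.969) and Clec1b (0.966), the last a receptor of platelets and megakaryocytes at 6.73 ± 0.417 FPKM in KO Wnt5a and 22.1 ± 11.1 in Wnt5a. Dhrs3 was followed by Csf2rb2 (0.963), the prostacyclin receptor gene Ptgir (0.957) and the cell cycle inhibitor gene Cdkn1a (0.954). Cdkn1a had 35.5 ± 1.49 FPKM in KO Wnt5a and 111 ± 44.5 in Wnt5a, and 98.6 ± 13 in KO Ctrl and 211 ± 20.2 in WT. Rxrb was followed by Gnl1 (0.983), Ubtf (0.968) and Pcbp1 (0.968), and Rara by Pink1 (0.935), Dock2 (0.904) and Asb13 (0.900). For Aldh1a1 the highest values were lower, with Smdt1 (0.884), Tbcb (0.882) and H2afj (0.879). After Themis, Rxrg was followed by the transcripts Gm10482 (0.976) and 1700003C15Rik (0.974), both close to 0 outside the reserve set.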

How the data were processed

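Libraries of sorted LT-HSC were prepared by SMARTer amplification for low input and by Nextera tagging, per the labels' protocols, and keep no strand. Tools given in the submitters' processing notes are TopHat2 2.0.10, CASAVA 1.8.2 and Cufflinks, with assembly mm10. The deposited values are FPKM by the authors in 1 table. Its header names no unit, and the steps between values were checked. GENCODE M21 (GRCm38, that is mm10) gave symbols and positions, and it matched 43938 of 44349 identifiers. A set of 16 genes with 33 missing cells was not used.

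The model was limma 3.58.1 in R 4.3.3 (intensity trend, robust moderation, 1 mean per group, all 18 libraries) on log2(FPKM + 1), fitted to the 14285 genes that reached 1 FPKM in 3 or more libraries, for 7 comparisons of groups and 2 interactions. Calls used a Benjamini-Hochberg adjustment within each comparison and a threshold of 0.05. No count test was run, since the table holds no counts. The model was tested on simulated data. Fragment steps in 6690 single-transcript genes (1000 to 4000 bp) gave the depth, and floors cover counting error only.

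The 9 genes, the pathway and marker lists and the tests were chosen with earlier results of these data known. Besides the 9 genes, the text names, for each pathway list, up to 2 genes with the smallest p among those called in each direction of a comparison, the 3 genes most correlated with each tested gene, and the gate and marker genes that moved with a result; Top2b and the Cyp26 genes were named after their values were seen. Some genes of the lists are not reported here, and sums and counts are without them. Numbers of the replicates were not taken to pair libraries. Alternatives changed the scaling (quantile or median-ratio), the pseudocount (0.1), the filter (none, or a mean of 5 FPKM), the variance model (no trend or robust step), library weights, the samples fitted (those compared, or 1 left out) and a replicate block; a fit of only the 12 libraries without the reserve label was chosen after the data were seen. Python 3.11.15 (pandas 2.3.3, numpy 2.4.6, matplotlib 3.10.9) made summaries and figures.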

Additional observations from a re-analysis of the deposited data

Results flagged for a closer look

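The knockout effect in the reserve set minus that outside it passed a test of the difference itself (limma, adjusted over all genes) for Aldh1a1 and Rara, a test that 30.9% of all genes tested passed, so that their passing does not set them apart. The difference was 0.96 on the log2 scale for Aldh1a1, with effects of 0.48 in the reserve set and -0.48 outside it, and -1.27 for Rara, with effects of -0.88 and 0.39. For both genes the knockout and wild-type libraries separated in opposite directions, without overlap, inside and outside the reserve set. How many of all genes separate in this way was not counted. The Rara effect outside the reserve set was 0.15 without KO Ctrl replicate 2. For Rxrg the difference was -2.17, a description only, since the gene entered the fit through the reserve libraries in which it is high. Groups of 3 are too small to call a single library an outlier, and fits that left out 1 library are given below.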

How the results depend on the processing

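No called difference changed direction. The uncalled Rxrb difference of KO Reserve against WT Reserve took both signs (-0.33 to 0.34). The counts below include Rxrg, which was called in every comparison that holds reserve libraries, in each fit that tested it. Since Rxrg had to differ there, its calls say nothing of how stable these counts are. Of the 6 tested genes, Rxrg included, the number called moved as follows. With a mean of at least 5 FPKM, where only Rxrb, Aldh1a1 and Dhrs3 were tested, it was 1 for KO Ctrl against WT (0 in the reported fit), 2 for KO Reserve against WT Reserve (4), 2 for KO Reserve against KO Ctrl (5), 3 for WT Reserve against WT (6) and 1 for the knockout effect in the reserve set minus that outside it (3). Rara, Rarg and Rxrg could not be called there. Library weights, whose estimation did not fully converge, gave 2 for KO Ctrl against WT, 3 for KO Wnt5a against Wnt5a (1 in the reported fit) and 2 for Wnt5a against WT (0). Median-ratio scaling gave 1 for KO Ctrl against WT, which was Aldh1a1 (-0.56, adjusted p = 0.0298). It ended the Rara call in KO Reserve against KO Ctrl (adjusted p = 0.0599). Quantile normalization ended the calls of Rarg in KO Reserve against WT Reserve (adjusted p = 0.107) and of Rara in WT Reserve against WT (adjusted p = 0.102). A pseudocount of 0.1 gave 5 for KO Reserve against WT Reserve. With no filter, where Rarb was tested too, WT Reserve against WT had 7. The fit of the 12 libraries outside the reserve set gave 2 for KO Wnt5a against Wnt5a. Leaving out 1 library gave 0 to 1 for KO Wnt5a against Wnt5a, 0 to 1 for KO Wnt5a against KO Ctrl, 3 to 5 for KO Reserve against WT Reserve, 4 to 5 for KO Reserve against KO Ctrl, 5 to 6 for WT Reserve against WT, and 3 in each case for the difference of knockout effects. Apart from the genes left untested with a mean of at least 5 FPKM, the cause of these changes was not tested.

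Libraries with the same replicate number did not deviate together (correlations of -0.09 to 0.10 over 45 pairs), so the numbers were not taken as pairs. With a replicate block the number called was 1 for KO Ctrl against WT (Aldh1a1, adjusted p = 0.0483), and with it the Dhrs3 difference within the reserve set passed as well (adjusted p = 0.0412). Over single genes and comparisons, 850 values kept their side of the threshold under the alternatives, 18 lost it and 17 gained it. All genes called in KO Ctrl against WT ranged from 132 without WT replicate 3 to 1480 with library weights, around 378, those in Wnt5a against WT from 3 to 1541, around 7, and those in KO Wnt5a against Wnt5a from 146 to 1548, around 461. Those in KO Wnt5a against KO Ctrl ranged from 65 to 156, around 146, and those in the Wnt5a interaction from 1 to 54, around 10. For KO Reserve against WT Reserve 3720 genes were called in a fit of those libraries alone, and 5899 in the reported fit. Depth limits Crabp2, at or below 3 fragments in 17 of 18 libraries, and Rxrg outside the reserve set, at or below 3 fragments in 7 of 12.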
